A study of Mus musculus with 15 samples.

Results

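Collagen chains were taken as the genes whose array annotation was 1 symbol of the form Col, number, a, number. The array held 82 such probe sets for 42 genes, out of 18193 genes with a probe set of 1 symbol, and each gene was represented by its probe set with the highest mean over the 15 arrays. By class there were 11 fibrillar chains, 8 chains of basement membranes and 23 others. A filter on dim signal (3 of the 15 arrays, or more, above their own 50th percentile) left 27 of the 42 chains for testing, namely 8 fibrillar, 5 basement membrane and 14 other chains, out of 12400 genes tested. The 15 chains left out were Col5a3, Col11a2 and Col24a1 of the fibrillar class, Col4a3, Col4a4 and Col15a1 of basement membranes, and Col6a1, Col6a4, Col6a5, Col8a1, Col8a2, Col9a2, Col10a1, Col17a1 and Col19a1. Their highest signal on any array lay between 7.73 (Col6a5) and 29.7 (Col11a2), near or under the array medians of 29.4 to 31.2. A chain that is bright in 1 group alone passed the filter through that group, so the counts below describe the 27 tested chains and not the whole family.

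Collagens are the main structural proteins of the extracellular matrix. Each chain is made as a precursor, modified and wound with others into a helix in the endoplasmic reticulum, and secreted. Fibrillar types I, II, III, V and XI assemble into striated fibrils, type IV forms the sheet-like network of basement membranes, and other types coat fibrils, span the cell membrane or anchor epithelia. In the embryo, the mesenchymal cells of the presomitic mesoderm become epithelial somites enclosed by a basement membrane, and somite derivatives later deposit the fibrillar matrix of dermis, tendon and cartilage.

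The study followed mouse embryonic stem (ES) cells through a culture meant to yield paraxial mesoderm, with 5 groups of 3 biological replicates. The ES group was line E14 (strain 129P2) at day 0, unsorted, in medium with LIF, serum and the inhibitors CHIRON99021 and PD0325901 of GSK3 and MEK. All 4 sorted groups had received BMP4 at 10 ng/ml for 2 days, then a medium with LDN, which blocks BMP receptors, at 0.1 µM and DMSO at 0.5%. That medium held either Rspo3, an agonist of Wnt signalling, at 10 ng/ml (RDL) or CHIRON99021 at 1 µM (CDL). Day 4 cells were E14 cells positive for the reporter Msgn1-repV, and day 6 cells were positive for Pax3-GFP in another line, CK35 of strain 129Sv. Day 6 therefore differs from day 4 and from ES cells in line, strain and reporter as well as in time, and these cannot be told apart. Nothing in the labels ties a replicate to a clone, and each line stands for 1 genotype.

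Signals are linear intensities as deposited, 1 per probe set, and are compared within a probe set only, since probe sets differ in brightness. Differences are taken after log2(signal + 12.6), a scale that compresses the change of dim chains, and carry the standard error (SE) of a limma fit over all 15 arrays. A chain is said to be higher or lower where its adjusted p (Benjamini-Hochberg over the 12400 genes) was under 0.05. In these bulk samples, fewer cells of a type and less RNA per cell cannot be told apart.

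RefSeq promoter windows (build GRCm38.p6, 250 bases before to 50 after the start site) were found for 33 of the 42 chains. Col3a1 and Col1a2 are shown because they had the largest differences from ES cells among the fibrillar chains. Col4a1 and Col4a2 are shown because they lie head to head, with start sites 21 bases apart, and their windows share 78 bases. The windows are chr1:45311288-45311587 and chr6:4505368-4505667 on the plus strand, chr8:11312777-11313076 on the minus strand and chr8:11312555-11312854 on the plus strand. Capitals mark the letters CCAAT or TATAAA on either strand (ATTGG or TTTATA as printed), and no hits in these windows overlapped.
Col3a1: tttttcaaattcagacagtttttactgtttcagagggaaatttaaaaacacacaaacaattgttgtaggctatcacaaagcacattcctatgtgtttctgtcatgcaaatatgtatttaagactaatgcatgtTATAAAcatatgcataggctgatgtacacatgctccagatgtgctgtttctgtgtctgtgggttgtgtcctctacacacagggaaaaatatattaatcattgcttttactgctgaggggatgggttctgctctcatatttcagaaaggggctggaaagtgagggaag
Col1a2: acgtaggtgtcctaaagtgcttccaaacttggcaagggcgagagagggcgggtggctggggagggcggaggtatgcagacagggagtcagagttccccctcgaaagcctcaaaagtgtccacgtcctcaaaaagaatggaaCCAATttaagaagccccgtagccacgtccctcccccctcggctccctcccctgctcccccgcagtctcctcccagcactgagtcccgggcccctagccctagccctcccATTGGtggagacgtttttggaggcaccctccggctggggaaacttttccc
Col4a1: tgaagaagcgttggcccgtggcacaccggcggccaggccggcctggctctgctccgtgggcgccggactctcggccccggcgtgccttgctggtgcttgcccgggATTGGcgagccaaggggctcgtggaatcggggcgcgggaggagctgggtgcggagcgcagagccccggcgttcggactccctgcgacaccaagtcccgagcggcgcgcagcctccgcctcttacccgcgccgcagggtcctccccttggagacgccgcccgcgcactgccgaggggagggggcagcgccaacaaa
Col4a2: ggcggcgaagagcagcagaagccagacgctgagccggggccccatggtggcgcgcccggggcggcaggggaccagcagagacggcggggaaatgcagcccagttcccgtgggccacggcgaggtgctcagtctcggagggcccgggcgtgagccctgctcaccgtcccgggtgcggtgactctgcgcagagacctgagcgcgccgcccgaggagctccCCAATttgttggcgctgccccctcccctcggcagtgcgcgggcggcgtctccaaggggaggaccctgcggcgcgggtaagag
The Col3a1 window held TATAAA from base -117 relative to the start site and no CCAAT. That of Col1a2 held CCAAT from base -109 and its reverse complement at base 0, that of Col4a1 its reverse complement at -145, and that of Col4a2 CCAAT at -32. CCAAT on either strand was in 13 of the 33 collagen genes and in 41.1% of all 27025 genes with a window. TATAAA was in 5 of the 33 and in 15.7% of all genes. The GC box letters GGGCGG, on either strand and not marked by capitals, were in 21 of the 33 and in 38.2% of all genes. These are matches of letters and say nothing of binding.

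Several arrays and markers bear on what follows. Over all genes, the mean correlation with the ES arrays was 0.899 for CDL day 4 replicate 1 and 0.839 and 0.840 for its mates, and the summed signal of 12 pluripotency markers was 15070 on it against 3678 and 3464. In RDL day 6 replicate 1, correlation within the group was lowest (0.978), and actin's 3' signal exceeded its 5' signal most (ratio 1.90, lowest array 1.43). The ES arrays had ratios of 1.77, 1.80 and 1.85, and the other sorted arrays 1.43 to 1.66. Presomitic and somitic markers (12 of 12 on the array), which include Msgn1 and Pax3, summed to 382 to 430.3 in ES cells and to 3747 to 10360 over the 12 sorted arrays. At day 4, 12 of them were higher than in ES cells and 0 lower in RDL, and 7 were higher and 1 lower in CDL. At day 6, 9 were higher in RDL and 10 in CDL, and 0 were lower in either. Msgn1 and Pax3 were brightest in the sorts that used their reporters. Neural markers (7 of 7 on the array, 5 tested) had 1 to 2 members higher and 1 lower than in ES cells in each sorted group. Of all genes tested, 26.6% to 28.3% were higher and 29.5% to 33.3% lower than in ES cells in the 4 sorted groups. The ES cells were maintained on inactivated embryonic fibroblasts, which make fibrillar collagen, with 1 feeder-free passage before differentiation, and the labels do not say at which of these steps the ES arrays were made. Of 14 fibroblast markers, 13 were on the array, and their summed signal was 945 to 1025 in ES cells. There 9 of the 13 had means under the array median, among them Lum, Dcn, Postn, Fap and Lox at 12.2, 22.9, 18.0, 9.28 and 21.8, and 4 above it, Timp1, Acta2, Pdgfrb and Tagln at 624, 80.2, 70.2 and 52.1, and Col1a1 and Col3a1 stood at 31.9 and 30.5.

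Against ES cells, every sorted group had more collagen chains higher than lower. At day 4, 16 of the 27 chains were higher in RDL and 0 were lower, where 27.6% of all genes tested were higher and 29.5% lower (57.1% in either direction). In CDL at day 4, 15 were higher and 1, Col18a1, was lower (all genes: 26.6% higher, 29.6% lower, 56.2% in all). At day 6, 20 were higher and 1 lower in RDL (28.3%, 33.3% and 61.6% of all genes). In CDL at day 6, 19 were higher and 0 lower (27.8%, 33.3% and 61% of all genes). At an unadjusted p under 0.05, limma's test had 1 chain lower in RDL at day 4 and 0 in CDL at day 6. The median difference over the 27 chains was 0.87, 0.41, 1.28 and 1.15 in these comparisons, beside -0.01, -0.02, -0.04 and -0.02 over all genes. These 4 comparisons share the ES arrays, so they are given side by side and not as repeats of each other. By mean signal, 12 of the 27 chains were brightest in RDL at day 6, 8 in CDL at day 6, 4 in CDL at day 4, 2 in RDL at day 4 and 1 in ES cells.

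The 6 largest increases in RDL at day 4 were Col4a1 (3.32 ± 0.24, adjusted p = 1.01e-08), Col4a2 (3.10 ± 0.23, adjusted p = 9.83e-09), Col4a5 (2.75 ± 0.15, adjusted p = 4.31e-10), Col3a1 (2.67 ± 0.12, adjusted p = 3.89e-11), Col1a2 (2.45 ± 0.27, adjusted p = 9.04e-07) and Col13a1 (1.68 ± 0.12, adjusted p = 6.9e-09). In CDL at day 4 they were Col1a2 (3.32 ± 0.27, adjusted p = 3.75e-08), Col4a1 (2.87 ± 0.24, adjusted p = 6.66e-08), Col4a2 (2.43 ± 0.23, adjusted p = 1.97e-07), Col3a1 (2.23 ± 0.12, adjusted p = 3.59e-10), Col4a5 (1.85 ± 0.15, adjusted p = 4.74e-08) and Col13a1 (1.79 ± 0.12, adjusted p = 4.32e-09). By the probe sets used, type IV, the type III chain, Col1a2 and the transmembrane chain Col13a1 led in both media at day 4. Their order depends on the constant, since the probe sets used for Col4a5 and Col4a2 were dim in ES cells. With a constant of 1, Col4a5, Col4a2 and Col4a1 had 3.89, 3.78 and 3.53 in RDL, and Col4a5 had 2.87 in CDL. In RDL at day 6 the order began with Col3a1 (7.30 ± 0.12, adjusted p = 7.41e-16), Col9a1 (5.31 ± 0.13, adjusted p = 5.51e-14), Col1a2 (4.95 ± 0.27, adjusted p = 2.28e-10), Col26a1 (4.10 ± 0.20, adjusted p = 6.27e-11), Col4a1 (3.52 ± 0.24, adjusted p = 3.75e-09) and Col4a2 (3.33 ± 0.23, adjusted p = 3.22e-09). In CDL at day 6 it began with Col3a1 (6.64 ± 0.12, adjusted p = 1.59e-15), Col1a2 (4.58 ± 0.27, adjusted p = 6.17e-10), Col26a1 (4.28 ± 0.20, adjusted p = 4.1e-11), Col4a1 (3.68 ± 0.24, adjusted p = 2.51e-09), Col4a2 (3.66 ± 0.23, adjusted p = 1.25e-09) and Col9a1 (3.40 ± 0.13, adjusted p = 7.35e-12). Col3a1 led both day 6 groups. With a constant of 1, Col4a5 passed Col4a1 there, at 4.45 in RDL and 4.53 in CDL. The decreases were those of Col18a1 in CDL at day 4 (-1.20 ± 0.24, adjusted p = 0.000429) and in RDL at day 6 (-0.60 ± 0.24, adjusted p = 0.0372). The second was lost with quantile normalisation and without RDL day 6 replicate 1 or any 1 of the ES arrays (largest adjusted p = 0.19).

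Among fibrillar chains, Col3a1, the chain of type III collagen of loose connective tissue and skin, was near the array median in ES cells and among the bright probe sets at day 6. Its signals were 32.1, 32.2 and 27.3 in ES cells, 238, 274 and 277 (RDL) and 171, 218 and 184 (CDL) at day 4, then 6094, 7013 and 7276 (RDL) and 3715, 4828 and 4393 (CDL) at day 6. All 12 sorted arrays lay above the ES arrays, and each day 6 array lay far above each day 4 array. Relative to day 4, Col3a1 was higher at day 6 by 4.63 ± 0.12 in RDL (adjusted p = 3.63e-13) and by 4.41 ± 0.12 in CDL (adjusted p = 3.99e-13). CDL was below RDL on all arrays at both days, by -0.66 ± 0.12 at day 6 (adjusted p = 0.00224) and, short of the threshold, by -0.44 ± 0.12 at day 4 (adjusted p = 0.0507).

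Col1a2 and Col1a1 code for the chains of type I collagen, the main fibril of bone, tendon and dermis. Col1a2 signals were 45.1, 38.0 and 52.5 in ES cells, 288, 323 and 295 (RDL) and 564, 660.5 and 476 (CDL) at day 4, then 1036, 2353 and 2229 (RDL) and 1165, 2006 and 1092 (CDL) at day 6. At day 4 the CDL arrays were all above the RDL arrays (0.87 ± 0.27, adjusted p = 0.0886), and at day 6 the media overlapped (-0.36 ± 0.27). The spread at day 6 was wide in both media, with RDL replicate 1 well below its mates and CDL replicate 2 well above its own. Col1a1 gave 32.7, 32.4 and 30.6 in ES cells, 47.9, 44.5 and 53.9 (RDL) and 33.0, 36.1 and 37.4 (CDL) at day 4, then 117, 212 and 210.4 (RDL) and 112, 107 and 93.9 (CDL) at day 6. Its RDL day 4 difference from ES cells was small (0.46 ± 0.16, adjusted p = 0.0221). That call was lost with a constant of 32 and without RDL day 4 replicate 3 or ES replicate 3 (largest adjusted p = 0.0808). In CDL at day 4 the difference was 0.11 ± 0.16 (adjusted p = 0.587). At day 6 Col1a1 was higher than in ES cells by 2.07 ± 0.16 in RDL and 1.39 ± 0.16 in CDL.

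Col2a1, the chain of type II collagen of cartilage, notochord and early somite derivatives, was near background until day 6. It read 25.4, 25.8 and 33.6 in ES cells, 40.4, 47.8 and 36.0 (RDL) and 23.1, 20.0 and 24.5 (CDL) at day 4, then 237, 398 and 436 (RDL) and 193, 207 and 201 (CDL) at day 6. The day 6 arrays did not overlap any other, and those of CDL lay below those of RDL (-0.75 ± 0.17, adjusted p = 0.0112). At day 6 it was higher than at day 4 by 2.73 ± 0.17 in RDL and 2.60 ± 0.17 in CDL. Col11a1, which joins type II fibrils, followed at lower signal. It gave 25.1, 27.6 and 28.7 in ES cells, 28.3, 32.4 and 23.3 (RDL) and 36.0, 26.8 and 29.4 (CDL) at day 4, then 78.9, 85.0 and 88.0 (RDL) and 48.4, 61.6 and 47.9 (CDL) at day 6. It was higher than ES cells only at day 6 (1.28 ± 0.11 in RDL, adjusted p = 3.8e-08; 0.71 ± 0.11 in CDL, adjusted p = 2.85e-05), and it did not pass the test in either day 4 group.

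Type V collagen nucleates type I fibrils, and its chains differed in course. Col5a1 read 99.99, 113 and 88.4 in ES cells, 269, 279.96 and 317 (RDL) and 239.9, 278 and 248 (CDL) at day 4, then 202, 358 and 380.3 (RDL) and 212, 285 and 222 (CDL) at day 6. It was higher than ES cells in each sorted group, with differences of 1.42 ± 0.19, 1.25 ± 0.19, 1.49 ± 0.19 and 1.15 ± 0.19 for RDL and CDL at day 4 and at day 6, and the difference of day 6 from day 4 did not pass the test in either medium (RDL 0.07 ± 0.19, CDL -0.10 ± 0.19). Col5a2 gave 50.5, 54.8 and 59.3 in ES cells, 123, 143 and 157 (RDL) and 141, 153 and 134 (CDL) at day 4, then 413, 397 and 389 (RDL) and 297, 361 and 391 (CDL) at day 6. Its signal stood higher at day 6 than at day 4 on every array, by 1.43 ± 0.12 in RDL and 1.22 ± 0.12 in CDL. Col27a1, a fibrillar chain of cartilage, had 72.0, 47.8 and 40.1 in ES cells, 109.97, 99.9 and 106 (RDL) and 92.7, 109.5 and 98.3 (CDL) at day 4, then 83.0, 102 and 87.5 (RDL) and 131, 146 and 126 (CDL) at day 6. It was above ES cells in all 4 sorted groups, and among these its highest arrays were those of CDL at day 6.

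**Figure D1:**
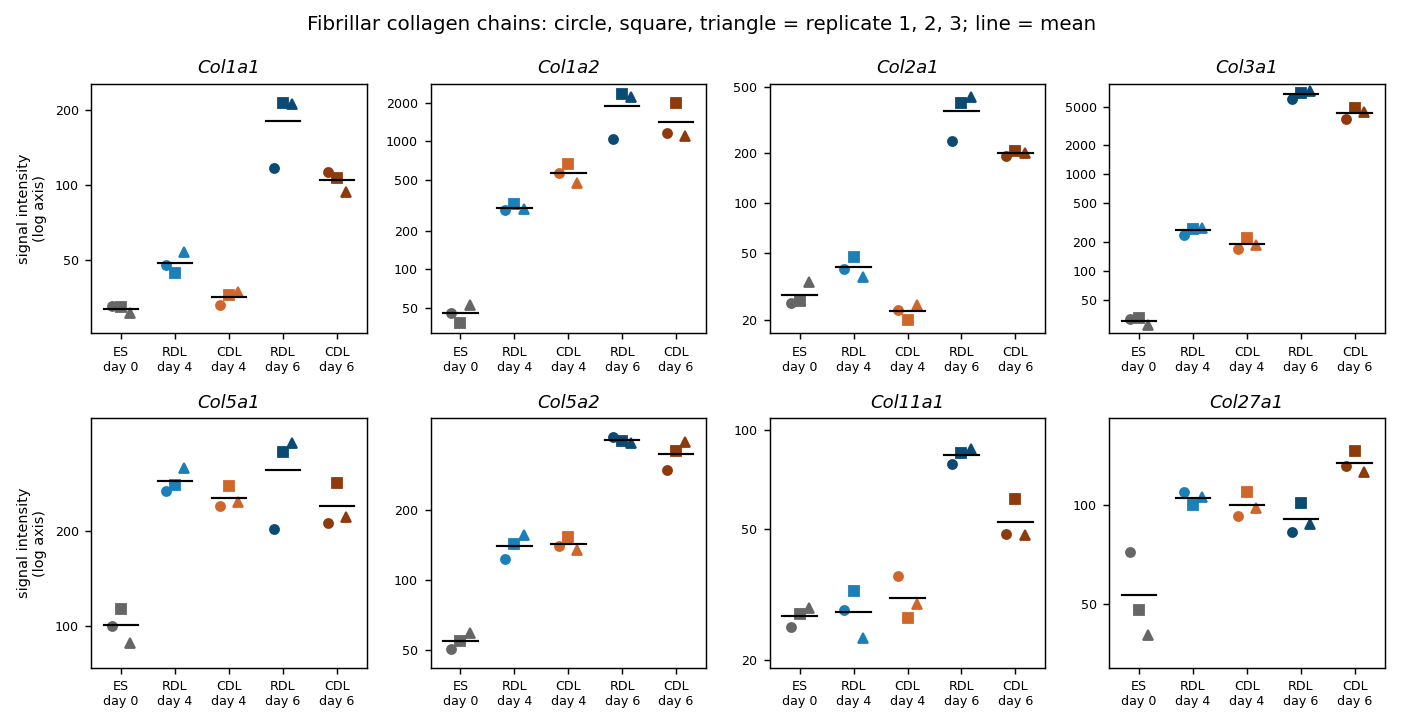
Signal of the 8 tested fibrillar chains (linear intensity, log axis) on each of the 15 arrays, by group, with the group mean as a line. Col3a1 runs from 27.3 to 32.2 in ES cells to 3715 to 7276 at day 6, Col5a1 is level between days 4 and 6, and Col2a1 and Col11a1 are brightest at day 6.

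Type IV collagen chains of basement membranes were higher than in ES cells already at day 4. Col4a1 and Col4a2, the common chains of type IV collagen, share the head-to-head promoter region printed above. Col4a1 read 66.2, 65.6 and 69.1 in ES cells, 699, 819.6 and 838 (RDL) and 487, 656 and 575 (CDL) at day 4, then 559, 1200.3 and 1084 (RDL) and 799, 1438 and 885 (CDL) at day 6. Col4a2 gave 15.4, 19.2 and 14.2 in ES cells, 199.9, 244 and 266 (RDL) and 131, 141 and 155 (CDL) at day 4, then 180.1, 354 and 329.7 (RDL) and 278, 499 and 310.05 (CDL) at day 6. For both, all sorted arrays were above the ES arrays, RDL day 6 replicate 1 was the lowest of its group and CDL day 6 replicate 2 the highest of its own. In RDL the difference of day 6 from day 4 passed the test for neither (0.20 ± 0.24 and 0.22 ± 0.23). In CDL they were higher at day 6 by 0.81 ± 0.24 (adjusted p = 0.0153) and 1.23 ± 0.23 (adjusted p = 0.000486), the first lost without CDL day 4 replicate 1 or CDL day 6 replicate 2 (largest adjusted p = 0.0701).

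Col4a5 and Col4a6, neighbouring genes that code for type IV chains of specialised basement membranes, were dim in ES cells by the probe sets used. Col4a5 read 7.71, 7.29 and 6.59 in ES cells, 116, 103 and 146 (RDL) and 52.5, 60.7 and 63.9 (CDL) at day 4, then 130.1, 203 and 211 (RDL) and 178, 192 and 196 (CDL) at day 6. CDL was below RDL at day 4 on every array (-0.90 ± 0.15, adjusted p = 0.00206) and overlapped it at day 6 (0.08 ± 0.15). The rise from day 4 to day 6 was 1.49 ± 0.15 in CDL (adjusted p = 1.27e-06) and 0.52 ± 0.15 in RDL (adjusted p = 0.0168). The latter was lost without RDL day 4 replicate 2 or RDL day 6 replicate 2 or 3 (largest adjusted p = 0.0906), and with the compared groups fitted alone with no block. Col4a6 had group means of 23.0 in ES cells, 56.7 (RDL) and 36.0 (CDL) at day 4, then 43.0 and 47.5 at day 6. It was brightest in RDL at day 4, where CDL was lower (-0.52 ± 0.12, adjusted p = 0.0159). This call was lost without any 1 of CDL day 4 replicates 1 and 2 and RDL day 4 replicates 1 and 3 (largest adjusted p = 0.0777). It was also lost with the compared groups fitted alone, with or without the replicate block.

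Col18a1, the chain of type XVIII collagen, a basement membrane proteoglycan from which endostatin is cut, was as bright in ES cells as in the brightest sorted groups. Its signals were 598, 621 and 668 in ES cells, 483, 598 and 701 (RDL) and 339.99, 234 and 237 (CDL) at day 4, then 281, 468 and 520.1 (RDL) and 488, 896 and 550.1 (CDL) at day 6. At day 4 RDL overlapped the ES arrays, and CDL lay below both (-1.10 ± 0.24 against RDL, adjusted p = 0.0122). From day 4 to day 6 it rose in CDL (1.19 ± 0.24, adjusted p = 0.000974) and had a difference of -0.51 ± 0.24 in RDL (adjusted p = 0.121). The difference between media at day 4 was lost without CDL day 4 replicate 2 or RDL day 4 replicate 2 or 3 (largest adjusted p = 0.0656).

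Primitive and parietal endoderm, which make type IV collagen in the embryo, have markers of which 13 of 13 were on the array and 8 tested. These summed to 356 to 377 in ES cells, 1051 to 1118 (RDL) and 1250 to 1514 (CDL) at day 4, then 949 to 1351 (RDL) and 1773 to 2017 (CDL) at day 6, and 5 were higher than in ES cells in both day 4 groups. At day 6, 7 were higher in RDL and 5 in CDL, and 0 of the 8 were lower in any sorted group. Of all genes tested, 26.6% to 28.3% were higher and 29.5% to 33.3% lower than in ES cells in these groups. Fst accounted for most of the sum at day 4 (means 616 and 968) and in CDL at day 6 (mean 1430, against 562 in RDL). The other 4 higher at day 4 in both media were Pth1r (means 13.4 in ES cells, 159 (RDL) and 133 (CDL) at day 4, then 56.0 and 91.1 at day 6), Dab2 (24.2 in ES cells, 68.2 (RDL) and 42.3 (CDL) at day 4, then 139 and 71.3 at day 6), Gata6 (25.2 in ES cells, 57.8 (RDL) and 36.6 (CDL) at day 4, then 79.3 and 34.9 at day 6) and Foxa2 (13.1 in ES cells, 19.5 (RDL) and 28.1 (CDL) at day 4, then 56.9 and 44.9 at day 6). The 5 not tested, Sox7, Gata4, Afp, Cubn and Amn, had means under 25 in each group. Their part in the type IV signal was not tested.

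**Figure D2:**
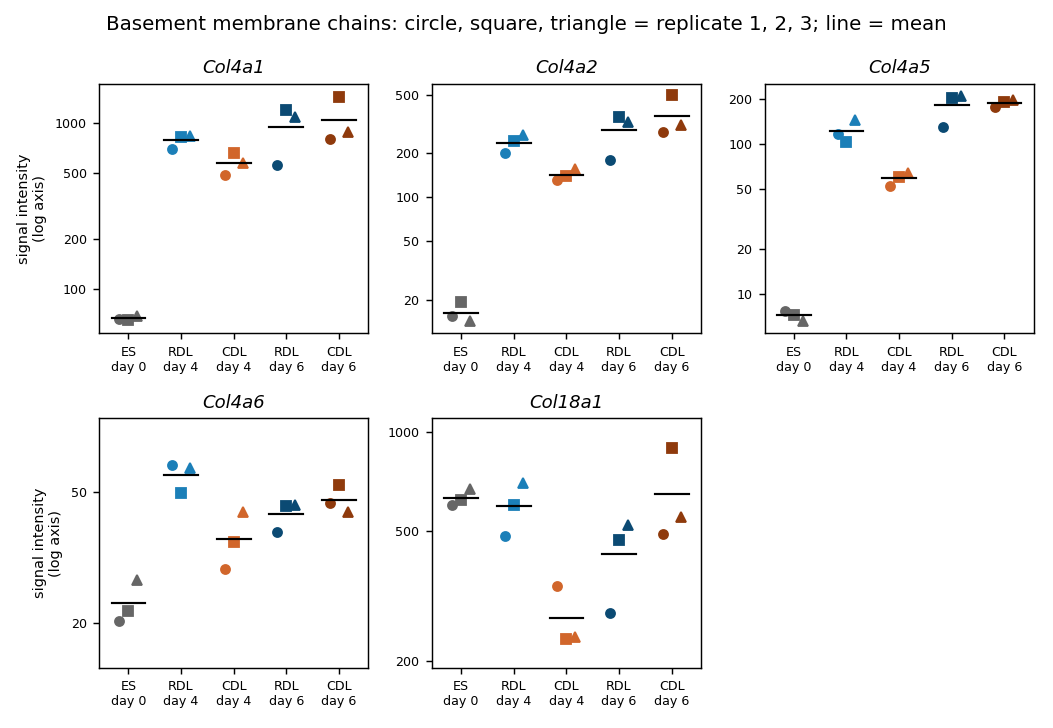
Signal of the 5 tested basement membrane chains (linear intensity, log axis) on each of the 15 arrays, by group, with the group mean as a line. Col4a1, Col4a2 and Col4a5 leave the ES range at day 4, and Col18a1 is lowest in CDL at day 4, at 234 to 340.0.

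Other chains fell into a few that were called in most comparisons and many that hardly moved. Col9a1, a chain of the type IX collagen that decorates type II fibrils, read 17.7, 10.5 and 15.7 in ES cells, 42.0, 44.1 and 39.6 (RDL) and 30.2, 25.9 and 31.2 (CDL) at day 4, then 1113, 968 and 1109 (RDL) and 286, 220.5 and 324 (CDL) at day 6. It was higher in every sorted group than in ES cells, and the RDL day 6 arrays lay far above the CDL day 6 arrays. That difference was -1.91 ± 0.13 (adjusted p = 1.99e-07), the largest between the media at day 6 among the 27 chains. Col9a3, another chain of type IX, passed no test in any comparison, with group means of 41.1 in ES cells, 39.4 (RDL) and 44.0 (CDL) at day 4, then 40.1 and 39.8 at day 6, and Col9a2 was among the dim chains. Col14a1, a fibril-associated chain of dermis and tendon, gave 15.2, 9.13 and 12.1 in ES cells, 40.7, 41.7 and 45.7 (RDL) and 16.4, 19.0 and 21.8 (CDL) at day 4, then 52.4, 56.5 and 61.5 (RDL) and 27.6, 32.8 and 29.4 (CDL) at day 6. CDL lay below RDL on every array at both days, by -0.81 ± 0.10 at day 4 (adjusted p = 0.000126) and -0.71 ± 0.10 at day 6 (adjusted p = 0.000188).

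Of the remaining fibril-associated chains, Col16a1 had means of 63.5 in ES cells, 71.9 (RDL) and 88.3 (CDL) at day 4, then 78.6 and 76.5 at day 6, and its highest group was CDL at day 4 (0.41 ± 0.09 over ES cells, adjusted p = 0.00116). Its day 6 differences from ES cells, 0.26 ± 0.09 in RDL (adjusted p = 0.0193) and 0.23 ± 0.09 in CDL (adjusted p = 0.0391), were lost without ES replicate 1 or 3, the first also without RDL day 6 replicate 2 or 3 and the second without CDL day 6 replicate 1 or 2 (largest adjusted p = 0.07 and 0.121). Both were lost with the compared groups fitted alone under the replicate block. The second was also lost without that block in such a fit, with no filter and with quantile normalisation. Col22a1, of tissue junctions, had means of 23.3 in ES cells, 25.7 (RDL) and 28.9 (CDL) at day 4, then 36.3 and 36.3 at day 6 and was higher than ES cells at day 6 by 0.44 ± 0.14 in RDL and 0.45 ± 0.14 in CDL, calls lost with probe sets averaged, without ES replicate 2 and without RDL day 6 replicate 3 or CDL day 6 replicate 2, respectively (largest adjusted p = 0.167 and 0.0675). Col12a1 (means 82.6 in ES cells, 69.6 (RDL) and 70.5 (CDL) at day 4, then 74.1 and 77.5 at day 6) and Col20a1 (means 29.8 in ES cells, 28.3 (RDL) and 32.7 (CDL) at day 4, then 27.7 and 35.4 at day 6) passed no test in any comparison.

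Transmembrane collagens are single-pass proteins of the cell surface. Col13a1, which sits at adhesion sites, was brightest at day 4. It read 31.5, 35.7 and 33.2 in ES cells, 113, 149 and 145 (RDL) and 136, 166 and 139 (CDL) at day 4, then 72.1, 61.4 and 62.0 (RDL) and 81.6, 103 and 95.4 (CDL) at day 6. The day 6 arrays were all below the day 4 arrays and above the ES arrays, with falls of -0.93 ± 0.12 in RDL (adjusted p = 1.91e-05) and -0.59 ± 0.12 in CDL (adjusted p = 0.00101). Col23a1 took the opposite course. Its signals were 23.9, 17.1 and 20.2 in ES cells, 42.0, 50.4 and 51.0 (RDL) and 32.3, 40.5 and 37.8 (CDL) at day 4, then 127, 179 and 211 (RDL) and 103, 126 and 101 (CDL) at day 6. It was higher at day 6 than at day 4 by 1.59 ± 0.15 in RDL (adjusted p = 6.27e-07) and 1.31 ± 0.15 in CDL (adjusted p = 4.6e-06). The probe set used for Col25a1 was level, with means of 67.0 in ES cells, 68.5 (RDL) and 79.1 (CDL) at day 4, then 70.5 and 65.1 at day 6. Its single call, day 6 against day 4 in CDL (-0.24 ± 0.08, adjusted p = 0.0345), was lost in 8 of 16 alternatives (largest adjusted p = 0.115). These were CDL day 4 replicate 2 or 3 or CDL day 6 replicate 1 or 3 left out, no filter, quantile normalisation, and the compared groups fitted alone, with or without the replicate block.

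Col26a1, an EMI domain collagen, was near background in ES cells and in CDL at day 4. It gave 18.4, 15.2 and 20.9 in ES cells, 49.0, 59.1 and 70.7 (RDL) and 20.4, 18.4 and 23.0 (CDL) at day 4, then 349, 643 and 598 (RDL) and 495, 732 and 549 (CDL) at day 6. RDL was above CDL at day 4 on every array (-1.11 ± 0.20 for CDL against RDL, adjusted p = 0.00299), and at day 6 the media overlapped (0.18 ± 0.20). From day 4 to day 6 it rose by 4.17 ± 0.20 in CDL and 2.87 ± 0.20 in RDL. Type VI collagen forms beaded filaments around cells, and of its chains Col6a2 had means of 60.4 in ES cells, 63.4 (RDL) and 60.5 (CDL) at day 4, then 74.9 and 61.6 at day 6 and Col6a3 of 29.9 in ES cells, 29.8 (RDL) and 37.0 (CDL) at day 4, then 38.0 and 38.4 at day 6. Col6a2 was called in RDL at day 6 against ES cells alone (0.25 ± 0.11, adjusted p = 0.0476), with overlapping arrays, and lost this call in 10 of 16 alternatives. Col6a3 passed no test. Col7a1, the chain of the fibrils that anchor epithelia, had means of 79.8 in ES cells, 121 (RDL) and 109.98 (CDL) at day 4, then 95.2 and 86.0 at day 6 and was highest in RDL at day 4 (0.53 ± 0.10 over ES cells, adjusted p = 0.000303).

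**Figure D3:**
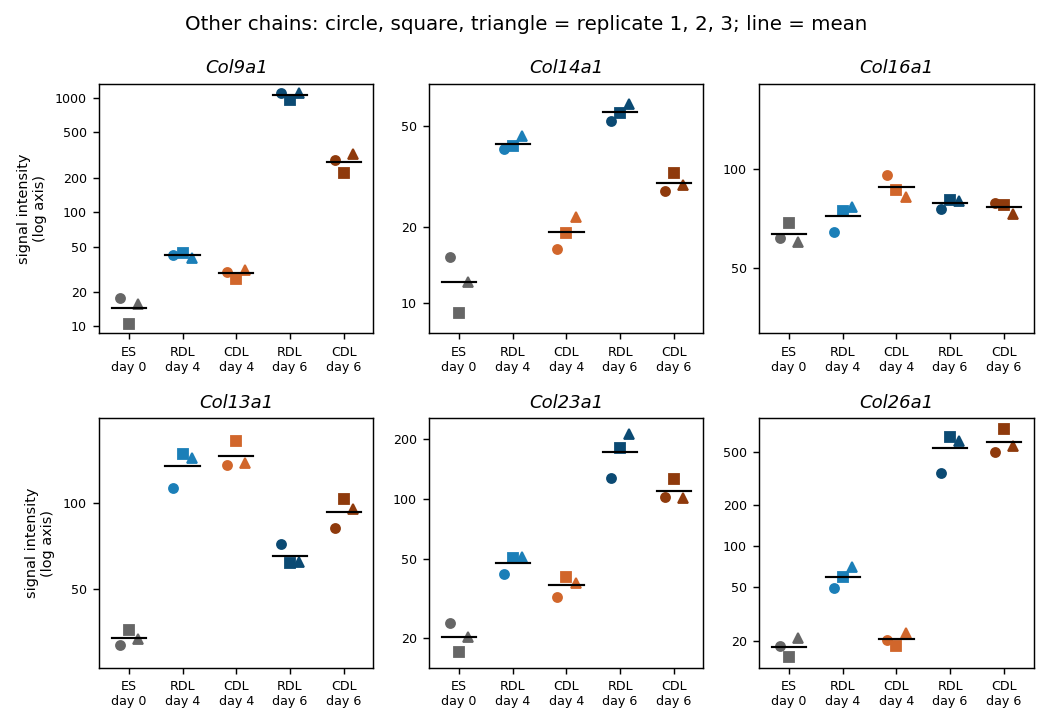
Signal of Col9a1, Col14a1, Col16a1, Col13a1, Col23a1 and Col26a1 (linear intensity, log axis) on each of the 15 arrays, by group, with the group mean as a line. Col9a1 reaches 968 to 1113 in RDL and 220.5 to 324 in CDL at day 6, and Col13a1 is brightest in both media at day 4.

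The media were compared at each day, which sets the Wnt agonist Rspo3 against the GSK3 inhibitor. At day 4, 5 chains were lower in CDL and 0 were higher (all genes: 1.52% lower, 2.9% higher, 4.41% in all), and 10 were lower and 2 higher at an unadjusted p under 0.05 in limma's test. The 5 were Col26a1 (-1.11 ± 0.20, adjusted p = 0.00299), Col18a1 (-1.10 ± 0.24, adjusted p = 0.0122), Col4a5 (-0.90 ± 0.15, adjusted p = 0.00206), Col14a1 (-0.81 ± 0.10, adjusted p = 0.000126) and Col4a6 (-0.52 ± 0.12, adjusted p = 0.0159). By class these were 3 of 5 basement membrane chains, 2 of 14 others and 0 of 8 fibrillar chains, for which 3 were lower and 1, Col1a2, was higher at an unadjusted p under 0.05. Pluripotency markers were high on CDL day 4 replicate 1 alone in this comparison, and with this array and RDL day 6 replicate 1 left out 7 chains were called. Without RDL day 4 replicate 3, 3 chains were called.

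At day 6, 7 chains were lower in CDL and 2 higher (all genes: 3.94% lower, 3.68% higher, 7.61% in all). The lower chains were Col9a1 (-1.91 ± 0.13, adjusted p = 1.99e-07), Col2a1 (-0.75 ± 0.17, adjusted p = 0.0112), Col14a1 (-0.71 ± 0.10, adjusted p = 0.000188), Col1a1 (-0.68 ± 0.16, adjusted p = 0.0147), Col3a1 (-0.66 ± 0.12, adjusted p = 0.00224), Col23a1 (-0.57 ± 0.15, adjusted p = 0.0261) and Col11a1 (-0.57 ± 0.11, adjusted p = 0.00297). Col27a1 (0.51 ± 0.14, adjusted p = 0.0378) and Col13a1 (0.45 ± 0.12, adjusted p = 0.03) were higher. By class, 4 of 8 fibrillar chains were lower and 1 higher, 3 of 14 others were lower and 1 higher, and 0 of 5 basement membrane chains were called, with Col18a1 higher at an unadjusted p under 0.05 in limma's test (0.59 ± 0.24). The calls of Col9a1, Col14a1, Col3a1 and Col11a1 were kept in each alternative that tested them. Those of Col1a1, Col2a1, Col23a1, Col13a1 and Col27a1 were lost in 3 to 9 alternatives, RDL day 6 replicate 3 left out among them in each case. Leaving out RDL day 6 replicate 2 ended the calls of Col1a1, Col2a1, Col23a1 and Col13a1, and CDL day 6 replicate 3 those of Col1a1, Col23a1, Col13a1 and Col27a1. CDL day 6 replicate 1 did so for Col23a1 and Col27a1, CDL day 6 replicate 2 for Col13a1 and Col27a1, and RDL day 6 replicate 1 for Col27a1. The largest adjusted p of the 5, in the order above, was 0.17, 0.124, 0.185, 0.11 and 0.112. Without RDL day 6 replicate 3, 4 chains were called, and without RDL day 6 replicate 2 or CDL day 6 replicate 3, 5 were.

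Cartilage markers were set beside Col2a1, Col9a1 and Col11a1. Of 11 on the array, 4 were tested. Of these, 2 were higher and 1 lower than in ES cells in each day 6 group (all genes: 28.3% and 33.3% in RDL, 27.8% and 33.3% in CDL). Between the media at day 6, 1, Sox9, differed (7.61% of all genes). The summed signal of all 11 was 459.6 to 654 in RDL and 357 to 380.2 in CDL at day 6 against 244 to 255 in ES cells. Sox9, the regulator of cartilage collagen genes, had means of 23.1 in ES cells, 36.7 (RDL) and 30.7 (CDL) at day 4, then 262 and 96.1 at day 6 and was lower in CDL at day 6 (-1.27 ± 0.22, adjusted p = 0.00164). Sox6 had means of 36.3 in ES cells, 76.2 (RDL) and 65.2 (CDL) at day 6, and Snorc 61.05, 73.2 and 76.8. Acan, the cartilage proteoglycan, had means of 41.7 in ES cells, 28.8 (RDL) and 29.1 (CDL) at day 6. The markers not tested were dim, namely Matn1, Matn3, Comp, Cnmd, Epyc, Hapln1 and Sox5. Among these, Hapln1 had means of 15.4 in ES cells, 29.3 (RDL) and 16.0 (CDL) at day 6, and Sox5 17.7, 26.1 and 27.6. Endothelial and endoderm markers also differed between the media at day 6, where 3.68% of all genes were higher in CDL and 3.94% lower. Of 7 tested endothelial and blood markers 1, Lmo2 (1.93 ± 0.18), was higher in CDL and 3 were lower, among them Kdr (-0.99 ± 0.13) and Emcn (-1.23 ± 0.12). Of the 8 endoderm markers, Fst (1.34 ± 0.14) and Pth1r (0.60 ± 0.15) were higher and Sox17 (-1.40 ± 0.19), Gata6 (-0.97 ± 0.14), Dab2 (-0.82 ± 0.17) and Thbd (-0.75 ± 0.17) lower. Endothelial and blood markers (11 of 11) summed to 467 to 509.7 in RDL and 606 to 684 in CDL at day 6, with Cdh5 and Tie1 dim. Lmo2 alone made up most of the CDL sum (means 85.5 in RDL and 363 in CDL). The part of such cells in the collagen differences was not tested.

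**Figure D4:**
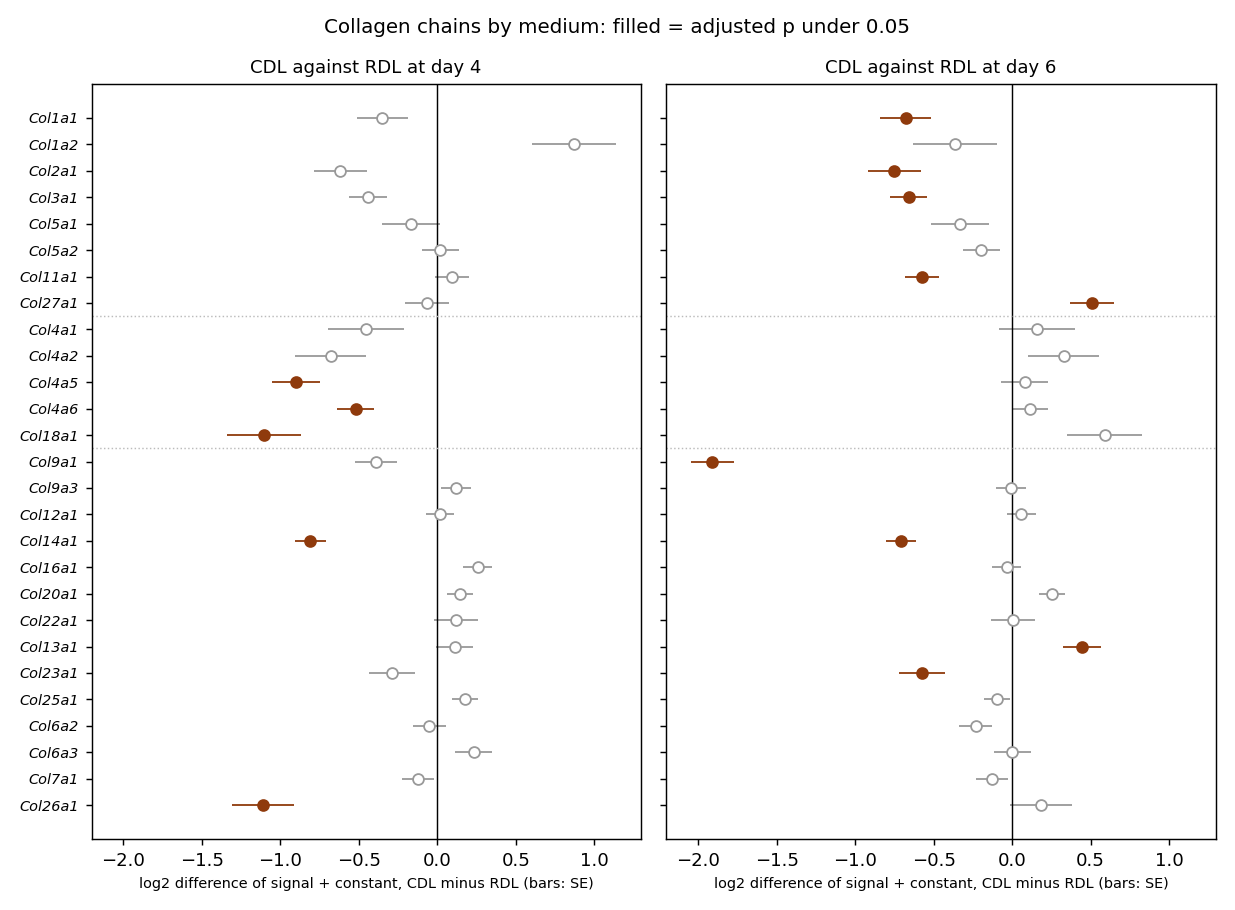
Difference between media (CDL minus RDL, log2 scale) at day 4 and day 6 for the 27 tested chains, with bars of 1 SE (n = 3 arrays per group). Col9a1 lies farthest below 0 at day 6 at -1.91, and Col26a1, Col18a1 and Col4a5 lie below 0 at day 4 and not at day 6.

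Day 6 was set against day 4 within each medium, across the change of line and reporter. In RDL, 11 chains were higher at day 6 and 3 lower (all genes: 13.8% higher, 17.2% lower, 31% in all), with a median of 0.22 over the 27. The 6 largest increases were Col3a1 (4.63 ± 0.12, adjusted p = 3.63e-13), Col9a1 (4.30 ± 0.13, adjusted p = 1.44e-12), Col26a1 (2.87 ± 0.20, adjusted p = 1.43e-08), Col2a1 (2.73 ± 0.17, adjusted p = 4.67e-09), Col1a2 (2.50 ± 0.27, adjusted p = 2.78e-06) and Col1a1 (1.61 ± 0.16, adjusted p = 1.25e-06). The decreases were Col13a1 (-0.93 ± 0.12, adjusted p = 1.91e-05), Col4a6 (-0.32 ± 0.12, adjusted p = 0.0496) and Col7a1 (-0.31 ± 0.10, adjusted p = 0.0305). Those of Col4a6 and Col7a1 were each lost without RDL day 4 replicate 1 or 3 or RDL day 6 replicate 2, and that of Col4a6 also without RDL day 6 replicate 1 or 3 (largest adjusted p = 0.169 and 0.123). With the replicate number as a block in a fit of the groups compared, they had adjusted p = 0.0625 and 0.0716, and the other 12 calls were kept. Over all 16 alternatives, the calls of Col4a6 and Col7a1 were lost in 12 and 7. In CDL, 16 were higher and 3 lower (all genes: 17.4% higher, 22% lower, 39.4% in all), with a median of 0.43. There the 6 largest increases were Col3a1 (4.41 ± 0.12, adjusted p = 3.99e-13), Col26a1 (4.17 ± 0.20, adjusted p = 1.61e-10), Col9a1 (2.78 ± 0.13, adjusted p = 1.92e-10), Col2a1 (2.60 ± 0.17, adjusted p = 7.18e-09), Col4a5 (1.49 ± 0.15, adjusted p = 1.27e-06) and Col23a1 (1.31 ± 0.15, adjusted p = 4.6e-06), and the decreases Col13a1 (-0.59 ± 0.12, adjusted p = 0.00101), Col7a1 (-0.32 ± 0.10, adjusted p = 0.0224) and Col25a1 (-0.24 ± 0.08, adjusted p = 0.0345). That of Col7a1 was lost without CDL day 4 replicate 3 or CDL day 6 replicate 1, with quantile normalisation and with the compared groups fitted alone with no block (largest adjusted p = 0.0894).

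By class, 6 of 8 fibrillar chains were higher at day 6 in RDL and 7 in CDL, and none was lower by limma's test, also at an unadjusted p under 0.05. Of the 5 basement membrane chains, Col4a5 was higher and Col4a6 lower in RDL, and all 5 were higher in CDL. In CDL the call of Col4a6 (0.32 ± 0.12, adjusted p = 0.0417) was lost without CDL day 4 replicate 1 or 2 or CDL day 6 replicate 1 or 2 and with the compared groups fitted alone, with or without the replicate block. That of the fibrillar chain Col27a1 (0.38 ± 0.14, adjusted p = 0.0426) was lost with a constant of 1 and without CDL day 4 replicate 1 or 3 or any 1 CDL day 6 array, and both were lost with no filter (largest adjusted p = 0.179 and 0.118). Of the 14 others, 4 were higher and 2 lower in RDL, and 4 were higher and 3 lower in CDL. The interaction of medium and day, which tests whether the difference between media changed between the days, called 6 chains (4 positive, 2 negative), where 5.39% of all genes were called (2.31% positive, 3.08% negative). Of the 6, 3 were among the 5 basement membrane chains, Col18a1 (1.69 ± 0.34), Col4a5 (0.98 ± 0.21) and Col4a6 (0.63 ± 0.16).

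Most members had other probe sets, and 17 of these 40 passed the filter. Over the 8 comparisons of 2 groups they gave 90 readings of members whose probe set of record was called, of which 76 had the same call, 14 had none and 0 had the opposite. Col1a1 was among those that differed. Its other probe set had means of 21.4 in ES cells, 27.1 and 25.5 at day 4, and 49.9 and 45.5 at day 6 in RDL and CDL, and did not pass the test between media at day 6 (-0.11 ± 0.13, adjusted p = 0.738) or between RDL day 4 and ES cells (0.22 ± 0.13, adjusted p = 0.158). At day 6 it was higher than in ES cells in both media (0.87 ± 0.13 in RDL and 0.76 ± 0.13 in CDL). Col3a1's other probe set had a mean of 11.7 in ES cells. In RDL and CDL it had 23.7 and 16.4 at day 4, then 1365 and 587 at day 6. It did not pass the test between CDL day 4 and ES cells (0.26 ± 0.18, adjusted p = 0.246), and was higher in CDL at day 6 (4.60 ± 0.18). The other Col9a1 probe set past the filter had means of 38.4 in ES cells, 40.7 and 34.3 at day 4, and 126.5 and 64.0 at day 6 in RDL and CDL. It did not pass the test at day 4 (0.07 ± 0.10, adjusted p = 0.586 in RDL and -0.12 ± 0.10, adjusted p = 0.31 in CDL), and its day 6 differences from ES cells, 1.45 ± 0.10 and 0.58 ± 0.10, were smaller than those of the probe set used. One more probe set of Col5a1 passed no test, at 52.4 in ES cells and 57.7 to 63.2 in the sorted groups. Col4a5's other probe set had a mean of 35.1 in ES cells and was not dim there. In RDL and CDL it had 65.3 and 45.1 at day 4, then 75.8 and 76.8 at day 6. Its differences from ES cells in CDL, 0.27 ± 0.11 at day 4 (adjusted p = 0.0483) and 0.89 ± 0.11 at day 6, were smaller than those of the probe set used. For Col25a1 the second probe set moved more than the first, and it was singled out after its values were seen. Its means were 11.1 in ES cells, 59.8 (RDL) and 124 (CDL) at day 4, then 59.6 (RDL) and 21.8 (CDL) at day 6. CDL was higher at day 4 (0.92 ± 0.19, adjusted p = 0.0117) and lower at day 6 (-1.02 ± 0.19, adjusted p = 0.00274). Averaging all probe sets of a gene, dim ones included, kept the calls of Col1a2, Col3a1, Col4a5, Col9a1, Col14a1 and Col26a1 in RDL at day 4 against ES cells at smaller differences of 1.46, 1.63, 1.73, 0.54, 0.46 and 0.62. Between media, Col14a1 then had -0.32 at day 4 and -0.30 at day 6, and Col26a1 -0.57 at day 4. Which transcripts the probe sets read was not tested.

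**Figure D5:**
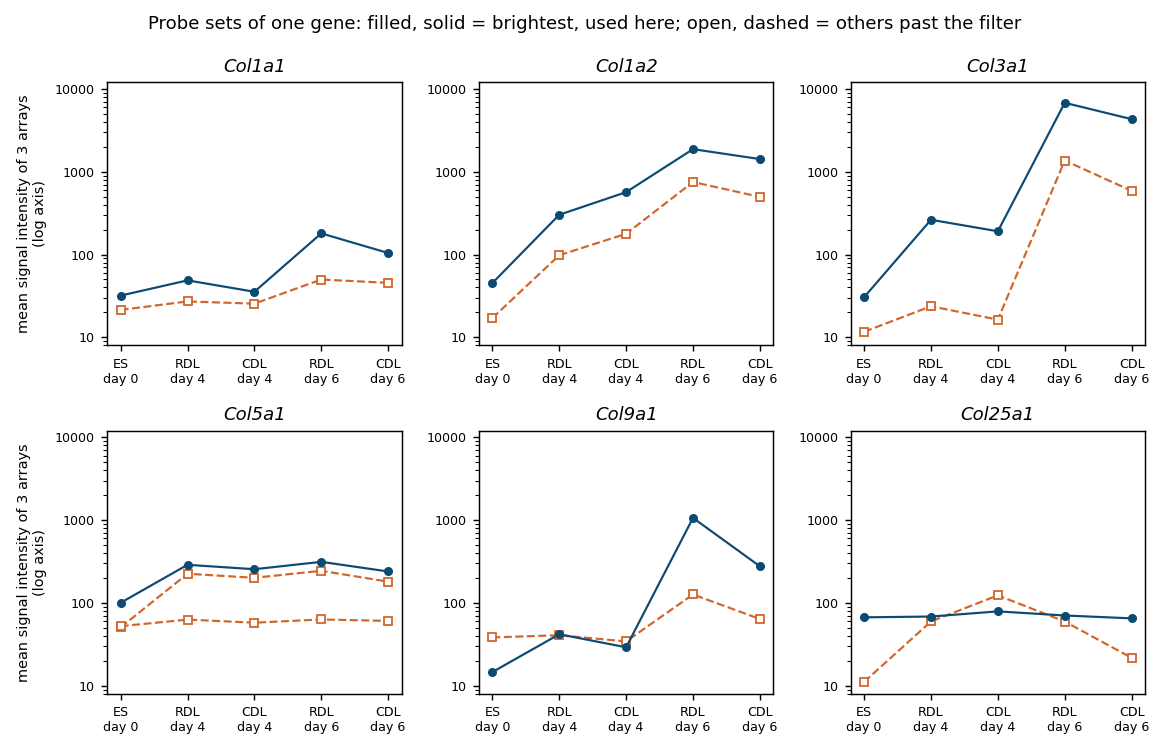
Group means (linear intensity, log axis) of each probe set past the filter of Col1a1, Col1a2, Col3a1, Col5a1, Col9a1 and Col25a1 across the 5 groups, with the probe set used drawn apart from the others. The lines of Col25a1 part, with 1 level at 65.1 to 79.1 and the other between 11.1 and 124.

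Genes that modify, export, cross-link, bind and degrade collagen were listed in 8 groups, 99 genes in all, of which 91 were on the array and 75 tested. Against ES cells, 34 of the 75 were higher and 19 lower in RDL at day 4 (CDL 33 and 18), where 27.6% of all genes were higher and 29.5% lower (CDL 26.6% and 29.6%). At day 6, 38 were higher and 16 lower in RDL (CDL 35 and 16), beside 28.3% and 33.3% of all genes (CDL 27.8% and 33.3%). Between the media, 1 was higher and 5 lower in CDL at day 4, and 6 higher and 9 lower at day 6 (all genes: 2.9% and 1.52%, then 3.68% and 3.94%). From day 4 to day 6, 27 were higher and 17 lower in RDL, and 27 and 20 in CDL (all genes: 13.8% and 17.2%, then 17.4% and 22%). The medians over the 75 lay between -0.04 and 0.31 in these comparisons. The counts of the single lists, of 4 to 16 tested genes, were not tested against these shares.

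Of 13 tested enzymes and partners that hydroxylate or glycosylate the chains, 5 were higher and 5 lower in RDL at day 4, and 7 and 2 in RDL at day 6. P3h2, a prolyl 3-hydroxylase that acts on type IV chains, had means of 28.1 in ES cells, 93.4 (RDL) and 53.0 (CDL) at day 4, then 168 and 319.7 at day 6 and was lower in CDL at day 4 (-0.69 ± 0.17) and higher at day 6 (0.90 ± 0.17). Plod1, a lysyl hydroxylase of the helix, was higher than in ES cells in each sorted group, by 0.61 ± 0.15 in RDL at day 4 and up to 1.85 ± 0.15 in CDL at day 6. P4ha2, a catalytic subunit of prolyl 4-hydroxylase, had means of 42.5 in ES cells, 135 (RDL) and 142 (CDL) at day 4, then 115 and 71.2 at day 6 and was lower in CDL than in RDL at day 6 (-0.60 ± 0.11, adjusted p = 0.00328). Crtap, of the prolyl 3-hydroxylation complex, was lower than in ES cells in each sorted group, by -1.26 ± 0.12 in RDL at day 4 and -1.65 ± 0.12 at day 6.

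Of 12 tested chaperones and export factors, 4 were higher and 5 lower in RDL at day 4. Serpinh1, the collagen-specific chaperone, had means of 115 in ES cells, 1520 (RDL) and 1083 (CDL) at day 4, then 1573 and 1258 at day 6, an increase over ES cells of 3.58 ± 0.11 in RDL at day 4 (adjusted p = 3.87e-13). CDL was below RDL at day 4 (-0.48 ± 0.11, adjusted p = 0.0168). Sec23a, of the coat that carries procollagen out of the endoplasmic reticulum, had means of 1531 in ES cells, 619.8 (RDL) and 564 (CDL) at day 4, then 1244 and 1127 at day 6. Creb3l2, a regulator of secretory genes, was higher at day 6 than at day 4 by 1.15 ± 0.19 in RDL and 1.30 ± 0.19 in CDL. Fkbp14, a prolyl isomerase that folds procollagen, was lower than in ES cells in both day 4 groups (-0.58 ± 0.20 in RDL) and higher in both day 6 groups (0.84 ± 0.20 in RDL).

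Of 4 tested genes of propeptide removal, 3 were higher and 1 lower than in ES cells in both media at day 4. Pcolce and Pcolce2 code for enhancers of the procollagen C-proteinase and changed in opposite directions from day 4 to day 6. Pcolce had means of 1159 in ES cells, 196 (RDL) and 194 (CDL) at day 4, then 1920 and 920.5 at day 6, and Pcolce2 had 320 in ES cells, 683 (RDL) and 478 (CDL) at day 4, then 36.2 and 32.9 at day 6. From day 4 to day 6 in RDL, Pcolce rose by 3.21 ± 0.22 and Pcolce2 changed by -3.83 ± 0.13, and in CDL the values were 2.25 ± 0.22 and -3.44 ± 0.13. Bmp1, the proteinase itself, was higher than in ES cells in each sorted group (1.47 ± 0.16 in RDL at day 4).

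Of 5 tested cross-linking genes, 2 were higher and 1 lower in RDL at day 4. Pxdn, the peroxidase that makes sulfilimine bonds in type IV collagen, rose with the type IV chains at day 4. Its means were 31.2 in ES cells, 1004 (RDL) and 987 (CDL) at day 4, then 946 and 926 at day 6, and its difference from ES cells was 4.54 ± 0.21 in RDL at day 4 (adjusted p = 4.55e-11) and 4.51 ± 0.21 in CDL. Day 6 minus day 4 was -0.14 ± 0.21 in RDL and -0.12 ± 0.21 in CDL, neither past the threshold. Lox, a lysyl oxidase of fibrils, was dim, and Loxl1 was higher at day 6 in RDL (1.09 ± 0.15 over ES cells).

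Collagen receptors were 7 among the tested genes, of which 4 were higher and 2 lower in RDL at day 4. Ddr2, the receptor tyrosine kinase for fibrillar collagen, had means of 66.3 in ES cells, 14.0 (RDL) and 18.7 (CDL) at day 4, then 206 and 60.5 at day 6, and CDL was below RDL at day 6 (-1.58 ± 0.12, adjusted p = 3.03e-07). Ddr1, which also binds type IV collagen, had 159 in ES cells, 271 (RDL) and 252 (CDL) at day 4, then 93.1 and 223 at day 6 and was higher in CDL at day 6 (1.18 ± 0.17, adjusted p = 0.00022). The interaction of medium and day was -1.81 ± 0.17 for Ddr2 and 1.27 ± 0.23 for Ddr1 (adjusted p = 7.56e-06 and 0.00378). Itga1, the integrin subunit that favours type IV collagen, was brightest at day 4 (20.8 in ES cells, 100.1 (RDL) and 77.6 (CDL) at day 4, then 27.1 and 31.9 at day 6). Its difference from ES cells at day 6 passed the test in CDL (0.41 ± 0.12, adjusted p = 0.00534) and not in RDL (0.26 ± 0.12, adjusted p = 0.0646). Mrc2, the receptor that takes up collagen, was higher in every sorted group than in ES cells (2.94 ± 0.18 in RDL at day 6). Itgb1, the shared integrin beta subunit, was too, at means of 170.4 in ES cells, 547 (RDL) and 446 (CDL) at day 4, then 642 and 639 at day 6. Ddr1 was singled out after its values were seen.

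Of 8 tested genes of collagen breakdown, 6 were higher and 2 lower than in ES cells in both media at day 4. Mmp2, a gelatinase, had means of 47.5 in ES cells, 476 (RDL) and 433 (CDL) at day 4, then 444 and 249.6 at day 6, and CDL was below RDL at day 6 (-0.80 ± 0.11). Mmp14, its membrane-bound activator, was higher in each sorted group (2.08 ± 0.15 in RDL at day 4), as was the inhibitor Timp3 (3.02 ± 0.13 in CDL at day 6). The inhibitor Timp1 was lower than in ES cells in each sorted group, with means of 624 in ES cells, 123 (RDL) and 132 (CDL) at day 4, then 314 and 199 at day 6. The interstitial collagenases Mmp8 and Mmp13 were dim.

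Partners of type IV collagen in basement membranes did not share 1 direction. Of 16 tested, 6 were higher and 3 lower in RDL at day 4 (CDL 5 and 3), and 6 were higher and 7 lower in RDL at day 6 (CDL 5 and 5). Lamb1, a laminin chain, rose in RDL at day 4 (2.12 ± 0.15). Nid1, which links laminin to type IV collagen, had means of 1102 in ES cells, 125 (RDL) and 192 (CDL) at day 4, then 456 and 110.5 at day 6, and was lower in CDL than in RDL at day 6 (-1.90 ± 0.35, adjusted p = 0.00254). Its arrays spread widely in CDL at day 4, with a standard deviation of 161 beside 9.025 in RDL. Frem2, of the basement membrane of the Fraser complex, was high at day 4 (2.91 ± 0.17 in RDL and 3.78 ± 0.17 in CDL over ES cells). Frem1, of the same complex, was near background until day 6, at means of 6.19 in ES cells, 9.06 (RDL) and 6.86 (CDL) at day 4, then 72.4 and 36.7 at day 6, and was lower in CDL there (-0.81 ± 0.11, adjusted p = 0.000163).

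Of 11 tested proteoglycans and glycoproteins that coat or accompany fibrils, 4 were higher in each day 4 group, and 6 were higher and 1 lower in each day 6 group. Lum, the proteoglycan lumican of fibril surfaces, had means of 12.2 in ES cells, 11.5 (RDL) and 10.9 (CDL) at day 4, then 224 and 38.8 at day 6, and CDL was below RDL at day 6 (-2.22 ± 0.14, adjusted p = 9.89e-08). Fbn2, a microfibril protein of the embryo, had 34.6 in ES cells, 564 (RDL) and 251 (CDL) at day 4, then 1456 and 2077 at day 6. Bgn, the fibril proteoglycan biglycan, had 27.5 in ES cells, 98.6 (RDL) and 48.7 (CDL) at day 4, then 168 and 133 at day 6 and was lower in CDL than in RDL at day 4 (-0.86 ± 0.14, adjusted p = 0.00185). Fn1, the fibronectin on which collagen fibrils assemble, was higher than in ES cells at day 4 (0.97 ± 0.21 in RDL) and lower at day 6 (-1.03 ± 0.21). Fibroblast markers, which include Lum and Dcn, summed to 8057 to 8364 in RDL and 6212 to 6842 in CDL at day 4, and to 5090 to 6378 and 3971 to 4945 at day 6. Of 10 tested, 4 were higher and 1 lower than in ES cells in each day 4 group, and 8 were higher and 2 lower in RDL at day 6 (CDL 7 and 1). Of all genes tested, 26.6% to 28.3% were higher and 29.5% to 33.3% lower in these groups. From day 4 to day 6, 7 markers were higher and 3 lower in RDL (CDL 6 and 3), beside 13.8% and 17.2% of all genes (CDL 17.4% and 22%). At day 6, 3 markers were lower in CDL than in RDL (3.94% of all genes). Acta2 and Tagln made up most of these sums at day 4 (means 3507 and 4016 in RDL), while Fap was at 7.90 at day 4 and 436 at day 6. The part of such cells in the collagen signal was not tested.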

How the data were processed

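RNA of 15 samples was labelled in 2 amplification cycles and hybridised to Affymetrix mouse arrays, per the labels' protocols. The authors deposited 1 linear intensity per probe set, made with MAS5, per the submitters' processing notes; its version and scaling are not given in the sources used here. MAS5 summarises each array on its own. Of 45101 probe sets, 64 controls were left out, and the platform annotation gave 1 symbol to 34945, several to 932 and none to 9160.

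A constant of 12.6, which is the median 25th percentile of the arrays, was added before log2. For 12400 genes, group means were fitted with limma 3.58.1 to the 15 arrays (R 4.3.3; eBayes with an intensity trend), tested on simulated data first. Per-array values are given for fibrillar chains of types I, II, III and V, for Col4a1 and Col4a2, and for others called with a log2 difference of at least 1. In each comparison of 2 groups the 6 largest called changes each way, and up to 4 genes of a list, are named. Classes, members and lists were chosen with earlier results of these data known. Same-numbered replicates of RDL day 6 and day 4 had residuals that correlated at 0.285, 0.258 and 0.219. All were over 0.1, the cut at which numbers were taken to pair samples. The days differ in line, so a pair is not 1 culture followed over time. In CDL the values were 0.0718, 0.138 and 0.139, and each day 6 array correlated best with the day 4 array of its own number. The reported differences and p-values come from the fit without the block. The labels call the replicates biological. The p-values set a difference against the spread between replicates pooled over all 5 groups, and not over the groups compared alone. The number of arrays limits the precision. Alternatives covered the constant, the filter, quantile normalisation, probe set means, the replicate block, the arrays fitted, the trend and left-out arrays. Promoter windows are RefSeq's. Figures used matplotlib 3.10.9.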

Additional observations from a re-analysis of the deposited data

Results flagged for a closer look

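For 6 chains the difference between media itself differed between day 4 and day 6, by the interaction term of limma's fit (Benjamini-Hochberg over 12400 genes, n = 3 arrays per group). Positive values mean that CDL gained on RDL. Across the days, line, strain and reporter change as well.

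Col18a1 had the largest value, 1.69 ± 0.34 (adjusted p = 0.00608), with CDL at 271 against 594 in RDL at day 4 and 645 against 423 at day 6. Col26a1 had 1.30 ± 0.28 (adjusted p = 0.0106), from 20.6 against 59.6 to 592 against 529.8. Col4a5 had 0.98 ± 0.21 (adjusted p = 0.0126), and Col4a6 had 0.63 ± 0.16 (adjusted p = 0.033). The Col4a6 value was lost without any 1 of CDL day 4 replicates 1 and 2, RDL day 4 replicates 1 and 3, CDL day 6 replicates 1 and 2 and RDL day 6 replicate 2 (largest adjusted p = 0.0838). It was also lost with the compared groups fitted alone, with or without the replicate block, and in 10 of 22 alternatives in all.

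On the other side, Col9a1 had -1.52 ± 0.19 (adjusted p = 0.000122), as RDL reached 1063 and CDL 277 at day 6. Col11a1 had -0.67 ± 0.15 (adjusted p = 0.0158). Of the 6, only Col4a6 lost its call in any alternative that tested it.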

How the results depend on the processing

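Over 125 called differences of single chains and 2116 recomputed values, 1975 kept direction and call, 141 kept the direction alone and 0 reversed. Of the 125, 101 kept their call in every alternative that tested them. Under the stricter filter, which leaves 13 chains, the chains called numbered 13 in RDL day 6 against ES cells (21 in the reported fit), 12 in CDL day 6 against ES cells (19), 3 and 5 between media at day 4 and day 6 (5 and 9), and 9 and 12 from day 4 to day 6 in RDL and CDL (14 and 19). The replicate block gave 9 chains between media at day 4. Same-numbered residuals correlated there at 0.101, 0.244 and 0.096, and each CDL array correlated best with the RDL array of its own number. Between media at day 6 they correlated at 0.609, 0.588 and -0.241. Whether the numbers pair the samples of the 2 media is not settled by these values. The block gave 17, 16, 20 and 19 chains against ES cells (RDL and CDL at day 4, then at day 6), 9 between media at day 6, 15 and 19 from day 4 to day 6 in RDL and CDL, and 8 for the interaction. A fit of the compared groups without the block gave 4 between media at day 6. The cause was not tested.

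Leaving out 1 array at a time gave 15 to 16 chains in RDL day 4, 16 to 17 in CDL day 4, 18 to 20 in RDL day 6 and 17 to 20 in CDL day 6 against ES cells. It gave 3 to 5 and 4 to 11 between media at day 4 and day 6, 11 to 16 and 15 to 17 from day 4 to day 6 in RDL and CDL, and 5 to 8 for the interaction. With replicate 1 of CDL day 4 and replicate 1 of RDL day 6 both left out, the counts in this order were 17, 17, 20, 19, 7, 11, 17, 17 and 7. Signal near background limits what can be read of the dim chains. With no filter and 42 chains tested, 5 chains were called between media at day 4 and 9 at day 6. These 9 are not the same set as in the reported fit, since Col27a1 lost its call with no filter.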

Other observations

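Some marker and signalling genes that are no collagens also differed between the groups. Fst, the secreted activin antagonist follistatin, had means of 111 in ES cells, 616 (RDL) and 968 (CDL) at day 4, then 562 and 1430 at day 6. Pth1r, the receptor of parathyroid hormone and its relative, had 13.4 in ES cells, 159 (RDL) and 133 (CDL) at day 4, then 56.0 and 91.1 at day 6 and was higher in CDL than in RDL at day 6 (0.60 ± 0.15, adjusted p = 0.02). Fap, a collagen-cleaving surface protease of activated fibroblasts, went from 7.90 and 8.46 in RDL and CDL at day 4 to 436 and 358 at day 6. Pdgfrb, the receptor of mesenchymal growth factor signals, had means of 70.2 in ES cells, 328 (RDL) and 224 (CDL) at day 4, then 1034 and 861 at day 6. Shh is a secreted signal of notochord and floor plate. Its means were 43.1 in ES cells, 39.0 (RDL) and 45.8 (CDL) at day 4, then 58.9 and 237 at day 6. Its standard deviation in CDL at day 6 was 118.1. Notochord markers (4 of 6 on the array) summed to 245 to 494 in CDL at day 6 against 155 to 198 in RDL. These sums include Shh itself. Of 3 tested, 1 was higher in CDL than in RDL at day 6 and 0 lower. In RDL and CDL at day 6, Chrd had means of 46.13 and 57.98, and Foxa2 had 56.88 and 44.9. Nog was dim. Fst, Pth1r, Fap, Pdgfrb and Shh were singled out after their values were seen.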
